A study of Homo sapiens with 6 samples.

Results

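MYC, MAX and MXD form a network of basic helix-loop-helix leucine zipper proteins that pair with one another and bind DNA as dimers. Its 10 genes were taken here as the rows whose Ensembl identifiers belong to MYC, MAX, MXD1, MXD3, MXD4, MXI1, MNT, MLX, MLXIP and MGA, out of 60671 genes in each table. Every one of the 10 had a row and met edgeR's minimum on counts, which kept 15663 genes. MYC binds E-box sequences only when it is paired with MAX, and such dimers activate genes of growth, ribosome production and metabolism. MXD1, MXD3, MXD4, MXI1, MNT and MGA also pair with MAX, occupy the same kind of site and recruit corepressors, so the outcome depends on which partner holds MAX. MLX is a second hub, which pairs with MLXIP, a sensor of glucose metabolites, and also with MXD1, MXD4 and MNT.

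The libraries came from KGN cells, an established human granulosa cell line, in which CRISPR editing had left both FOXL2 alleles wild type (genotype FOXL2 WT/WT), so control and depleted cells alike carried this edit. FOXL2 is the forkhead transcription factor of ovarian granulosa cells. One group of 3 libraries received siRNAs against FOXL2 and the other group of 3 received a scrambled control siRNA, each at 30 pmol with Lipofectamine RNAiMax, and RNA was taken at 30 h. Each FOXL2 siRNA library had its own pool of 3 siRNAs drawn from 4, with 1 siRNA common to all pools, so these libraries also differed in the siRNAs they received. The question addressed here was how far the mRNA of each network gene differed between FOXL2 siRNA and control siRNA.

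Total expected counts, which are RSEM's estimates of reads per gene, lay between 23843192 and 28791954 per library. FOXL2 had 9.88, 9.71 and 10.8 CPM (reads scaled to library size, normalised by TMM) in control siRNA replicates 1, 2 and 3 and 2.64, 3.31 and 2.36 CPM in FOXL2 siRNA replicates 1, 2 and 3, so every depleted library lay below every control. Of 14 granulosa cell markers, 7 reached 1 TPM in a library, among them NR5A1, AMH and STAR. FSHR and WT1 were listed at 0 throughout, and GATA4, INHA and CYP19A1 did not exceed 0.03, 0.25 and 0.68 TPM. Of 4 epithelial markers, KRT14 had 82.0 to 134 TPM with overlapping groups, and EPCAM, CDH1 and KRT5 stayed at or below 0.52 TPM. Of 3 Sertoli cell markers, SOX9 had 5.09 to 9.55 TPM with overlapping groups, and DMRT1 and PTGDS stayed at or below 0.04 TPM. FOXL2 siRNA replicate 2 stood apart from the other libraries on the first principal component, with a score of 40.9. Log2 fold changes of the members are given below with and without it, and those of other genes with it unless stated. ACTA2, a contractile actin, was higher in every FOXL2 siRNA library (280 to 351 TPM) than in the controls (207 to 266 TPM). The other smooth muscle markers MYH11 and DES stayed at or below 1.54 TPM, and the summed list of 3 ran from 208 to 267 TPM in controls and from 281 to 352 TPM after FOXL2 siRNA. CD68, a lysosomal protein of macrophages, gave most of a summed leukocyte list of 4 markers that ran from 72.9 to 86.0 TPM in controls and from 52.8 to 70.2 TPM after FOXL2 siRNA, with CD3E and LYZ at 0 in all libraries. The part of these shifts in the results below was not tested. In such bulk libraries fewer cells of a kind and less RNA per cell cannot be told apart.

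Transcript levels of different genes were compared in TPM, which is scaled by length. MYC was the most abundant transcript of the network, at 78.5 ± 3.17 TPM (SD, n = 3) in control cells. MXD3 (55.8 ± 3.57 TPM) and MLX (54.8 ± 2.92 TPM) came next, and their control libraries overlapped. MAX, the obligate partner, had 37.0 ± 3.56 TPM in controls and thus less than MYC in every control library. MLXIP followed at 25.1 ± 0.950 TPM and MXD4 at 15.2 ± 1.16 TPM, each above the next gene in every control library. MNT (10.2 ± 1.46 TPM) and MXI1 (8.64 ± 0.764 TPM) overlapped, MGA had 7.55 ± 0.332 TPM, and MXD1 was the rarest at 1.86 ± 0.308 TPM. The relatives left out of the list were nearly silent. MYCN had no count in any library, MYCL at most 5 counts, and MLXIPL, the second glucose-sensing partner of MLX, at most 1 count. MYC was thus the one MYC family gene with more than 5 counts in a library, and MXD3 was its most abundant antagonist transcript.

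**Figure D1:**
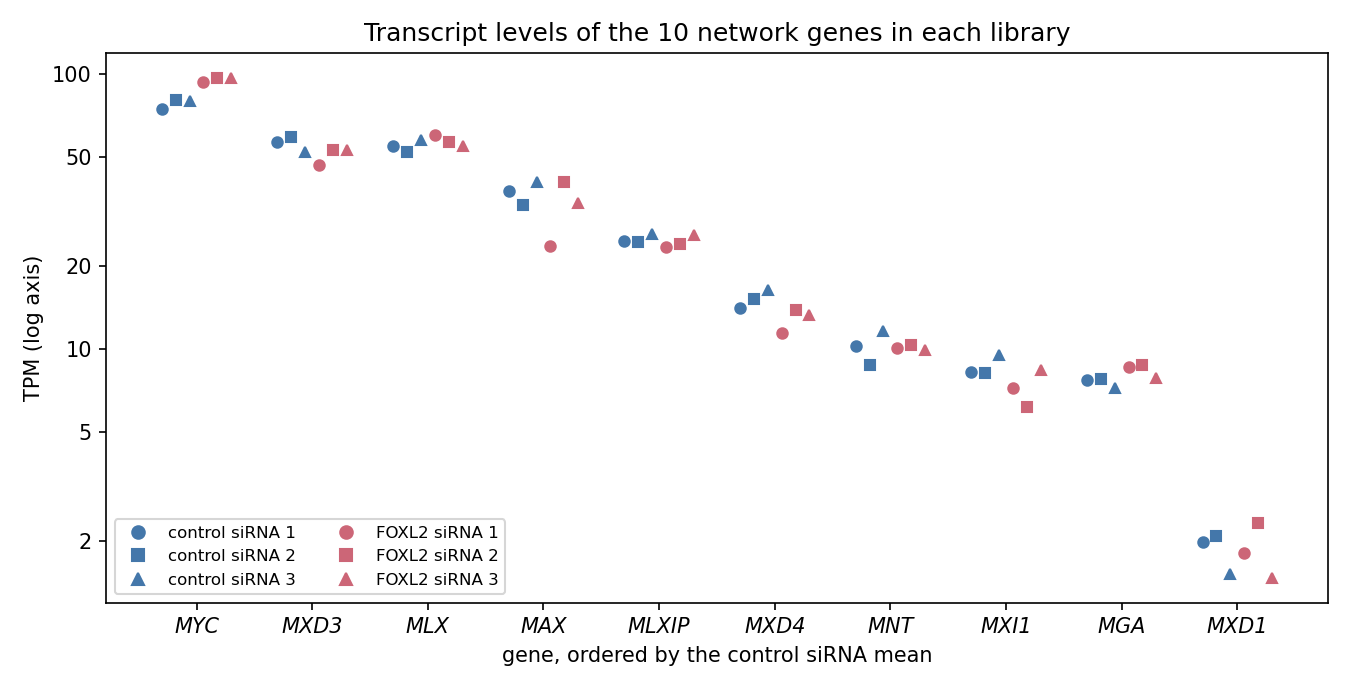
TPM of the 10 network genes (log axis) in 3 control siRNA libraries (blue) and 3 FOXL2 siRNA libraries (red), 1 point per library, with genes ordered by their control mean. MYC is highest and MXD1 lowest in every library, and the red points of MYC all lie above its blue points.

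None of the 10 genes was called by edgeR's quasi-likelihood test at a Benjamini-Hochberg adjusted p below 0.05, a threshold that 0.255% of the genes tested passed (40 genes). An unadjusted p below 0.05 was reached by 3 of the 10, MYC, MXD4 and MXD3, against 13.5% of all genes tested. Log2 fold changes of FOXL2 siRNA over control siRNA were positive for 5 members and negative for 5. Their median was -0.03, beside 0.0057 for all genes tested, and the median size regardless of sign was 0.124 for the members and 0.119 for all genes. The CPM values of the groups did not overlap for 3 members. MYC was higher in every FOXL2 siRNA library, as were 9.97% of all genes tested, and MXD4 and MXD3 were lower in every FOXL2 siRNA library, as were 10.6% of all genes. DESeq2, the tool of the study, called 1 member (MXD4) on the same counts, where 3.06% of all genes passed.

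MYC (ENSG00000136997, GRCh38 chromosome 8, 127735434 to 127741434, plus strand) had 2478, 2548 and 2915 expected counts in control siRNA replicates 1, 2 and 3, and 3413, 2812 and 3724 in the FOXL2 siRNA replicates. In CPM these were 98.8, 104 and 109 in the controls and 125, 116 and 129 after FOXL2 siRNA. The lowest depleted library, replicate 2, lay above the highest control, replicate 3, and the ratio of the means was 119% of control. The log2 fold change was 0.25 ± 0.0669 (SE), with a Benjamini-Hochberg adjusted p of 0.174 in edgeR's quasi-likelihood test and of 0.0718 in DESeq2. Per length, MYC had 74.9, 80.7 and 80.0 TPM in controls and 93.4, 96.7 and 96.7 TPM after FOXL2 siRNA, again without overlap (two-sided p = 0.1 by an exact permutation test, which cannot go lower with 3 against 3). When the effective length that RSEM estimated in each library entered DESeq2 as an offset, the log2 fold change was 0.28 ± 0.0742 (SE, Benjamini-Hochberg adjusted p = 0.0129), and MYC was the 1 member called, where 2.86% of all genes passed. Without FOXL2 siRNA replicate 2, edgeR gave MYC a log2 fold change of 0.29 ± 0.0584 (SE, Benjamini-Hochberg adjusted p = 0.0334). That fit called 3 members, MYC, MAX and MXD4, where 3.61% of all genes passed (579 genes).

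PVT1 is a long noncoding RNA gene next to MYC. It had 23.4, 26.4 and 27.3 CPM in control siRNA replicates 1, 2 and 3 and 31.3, 34.1 and 30.4 CPM after FOXL2 siRNA. All 3 depleted libraries lay above the controls, with a log2 fold change of 0.31 ± 0.0856 (SE, edgeR quasi-likelihood, Benjamini-Hochberg adjusted p = 0.181). Among the depleted libraries, replicate 2 was the highest for PVT1 and the lowest for MYC. Of the other neighbours listed, LRATD2 alone passed the filter on low counts, at about 1 CPM or less, with overlapping groups and a log2 fold change of 0.61 ± 0.353 (SE). CASC11, CASC8, PCAT1, CCDC26 and POU5F1B had at most 4 counts in a library. Over the 6 libraries, the genes whose log2 CPM ran most like that of MYC were TMSB15A (Pearson r = 0.992), SLC25A22 (r = 0.990) and PLAU (r = 0.988), 3 values picked from all genes tested and given as a description. Of these, PLAU, which encodes the urokinase plasminogen activator, was among the 40 genes called, with a log2 fold change of 0.56 (edgeR quasi-likelihood, Benjamini-Hochberg adjusted p = 0.0467).

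MAX (ENSG00000125952, GRCh38 chromosome 14, 65006174 to 65102695, minus strand) varied more between the FOXL2 siRNA libraries than between the conditions. Its values were 38.6, 36.3 and 38.0 CPM in controls and 26.1, 43.4 and 31.7 CPM in FOXL2 siRNA replicates 1, 2 and 3. Replicates 1 and 3 lay below every control and replicate 2 above every control, so the groups overlapped and their SDs were 1.20 and 8.80 CPM. The log2 fold change was -0.16 ± 0.156 (SE, edgeR quasi-likelihood, Benjamini-Hochberg adjusted p = 0.684). Without FOXL2 siRNA replicate 2 it was -0.38 ± 0.0880 (SE, adjusted p = 0.0480 in the same test). MAX overlaps FNTB, a farnesyltransferase subunit, on the opposite strand, and FNTB had a log2 fold change of 0.11. MXD1, the founding MXD antagonist, showed a like spread at a low level. It had 4.90, 5.55 and 4.96 CPM in controls and 3.73, 6.28 and 3.75 CPM after FOXL2 siRNA, with replicate 2 again the highest of all 6. Its log2 fold change was -0.18 ± 0.207 (SE) with all libraries and -0.46 ± 0.140 (SE, edgeR quasi-likelihood, Benjamini-Hochberg adjusted p = 0.123) without that replicate. Omission of another FOXL2 siRNA replicate moved the values toward 0. Without FOXL2 siRNA replicate 1 the log2 fold change of MAX was -0.0082, and that of MXD1 was -0.0549 without replicate 1 and -0.0524 without replicate 3. For both genes the size of the difference thus depended on single FOXL2 siRNA libraries. Each of these libraries also lacked a different siRNA of the set, so library and siRNA pool cannot be told apart.

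**Figure D2:**
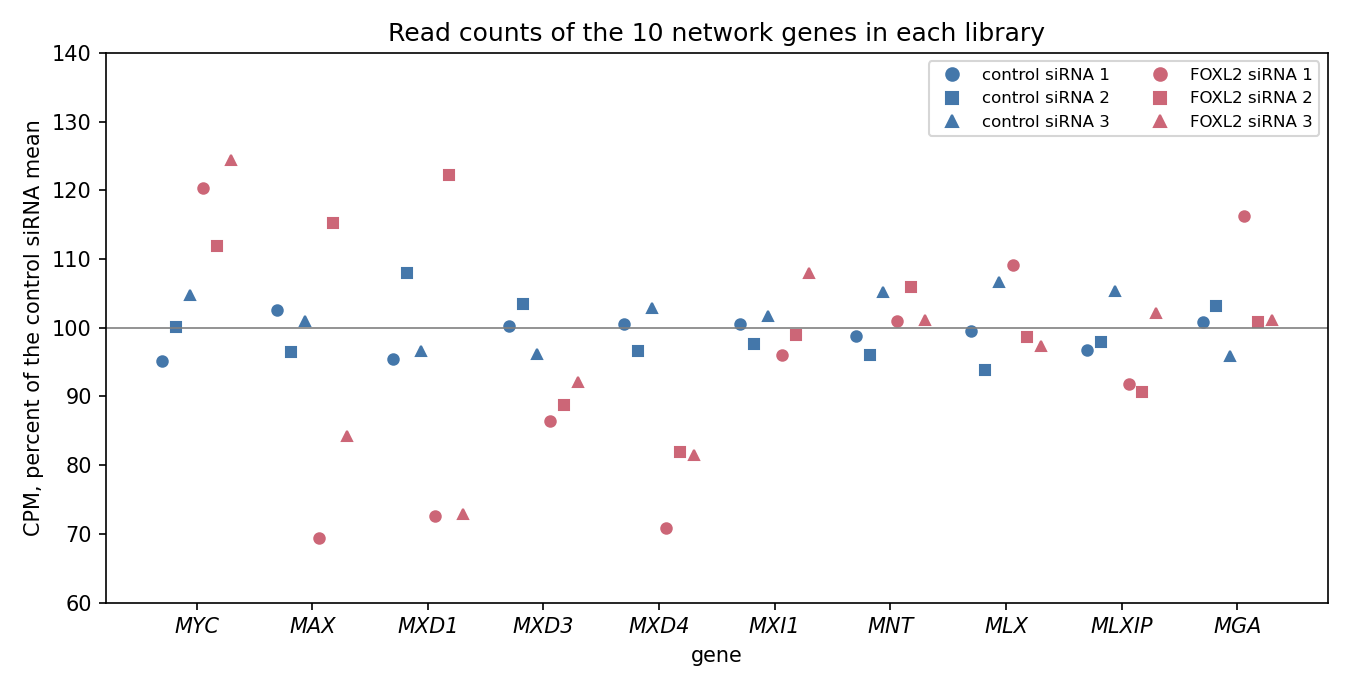
CPM of each network gene in each library as a percentage of its control siRNA mean (grey line at 100), with 3 control siRNA libraries in blue and 3 FOXL2 siRNA libraries in red. MYC lies between 112% and 124% in the depleted libraries, MXD4 between 70.8% and 81.9%, and MAX between 69.3% and 115%, with replicate 2 (square) apart from the others.

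Among the antagonists, MXD4 had the largest log2 fold change in the count-based edgeR and DESeq2 fits with all libraries, while MXI1 exceeded it in TPM and with effective lengths, and MXD1 without FOXL2 siRNA replicate 2. MXD4 (ENSG00000123933, GRCh38 chromosome 4, 2247432 to 2262294, minus strand) had 34.0, 32.7 and 34.8 CPM in controls and 24.0, 27.7 and 27.6 CPM after FOXL2 siRNA. All 3 depleted libraries lay below the lowest control, and the mean was 78.1% of control. The log2 fold change was -0.36 ± 0.0809 (SE), with a Benjamini-Hochberg adjusted p of 0.119 in edgeR's quasi-likelihood test and of 0.0269 in DESeq2. In TPM the groups were closer, with 14.1, 15.2 and 16.4 TPM in controls and 11.5, 13.9 and 13.3 TPM after FOXL2 siRNA, and the highest depleted library lay just under the lowest control. RSEM had assigned MXD4 a length of 3760 bases in control siRNA replicate 1 and of 3234 to 3395 bases in the other libraries. The edgeR value was -0.40 ± 0.0797 (SE, Benjamini-Hochberg adjusted p = 0.0319) when FOXL2 siRNA replicate 2 was left out. With effective lengths as offsets in DESeq2 the log2 fold change was -0.25 ± 0.115 (SE, Benjamini-Hochberg adjusted p = 0.282), and MXD4 was not called in that fit.

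MXD3 (ENSG00000213347, GRCh38 chromosome 5, 177301461 to 177312757, minus strand), an antagonist described in proliferating cells, had 40.0, 41.3 and 38.4 CPM in controls and 34.5, 35.4 and 36.8 CPM after FOXL2 siRNA. The groups did not overlap, but the gap between the nearest libraries was small and the log2 fold change was -0.17 ± 0.0675 (SE, edgeR quasi-likelihood, Benjamini-Hochberg adjusted p = 0.336), and it stayed at -0.17 without FOXL2 siRNA replicate 2. In TPM the groups overlapped, with 51.9 to 58.9 TPM in controls and 46.6 to 53.1 TPM after FOXL2 siRNA. MXD3 shares its strand with RAB24 in part of its length and overlaps PRELID1 on the opposite strand, and MXD1 shares its strand with SNRNP27, so that their reads could have been divided between genes. RAB24 and SNRNP27 had log2 fold changes of -0.03 and -0.04.

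MXI1, MNT and MGA, the remaining antagonists, had overlapping CPM values. MXI1 (ENSG00000119950, chromosome 10) had 7.85, 7.63 and 7.95 CPM in controls and 7.50, 7.73 and 8.43 CPM after FOXL2 siRNA, a log2 fold change of 0.02 ± 0.103 (SE). MNT (ENSG00000070444, chromosome 17), the most broadly expressed antagonist, had 21.6, 20.9 and 22.9 CPM in controls and 22.0, 23.1 and 22.1 CPM after FOXL2 siRNA, a log2 fold change of 0.04 ± 0.0760 (SE). MGA (ENSG00000174197, chromosome 15), which also carries a T-box and belongs to a Polycomb complex, had 49.3, 50.4 and 46.9 CPM in controls and 56.8, 49.3 and 49.4 CPM after FOXL2 siRNA, with a log2 fold change of 0.09 ± 0.0773 (SE). Replicate 1 alone exceeded the controls of MGA in CPM, and without it the log2 fold change of MGA was 0.0137. Without FOXL2 siRNA replicate 2 it was 0.12 for MGA, 0.02 for MXI1 and 0.0099 for MNT. In TPM, MGA was higher in all 3 depleted libraries (8.62, 8.76 and 7.83 TPM) than in the controls (7.70, 7.78 and 7.17 TPM), with little between the nearest libraries. MYC, MXD4 and MGA were the 3 members without overlap in TPM. The share of all genes without overlap in TPM was not counted, so no result about these members is drawn from it.

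The MLX arm differed little. MLX (ENSG00000108788, chromosome 17) had 68.0, 64.1 and 72.9 CPM in controls and 74.6, 67.4 and 66.5 CPM after FOXL2 siRNA, with a log2 fold change of 0.02 ± 0.0752 (SE). MLXIP (ENSG00000175727, chromosome 12) had 109, 110 and 119 CPM in controls and 103, 102 and 115 CPM after FOXL2 siRNA, with a log2 fold change of -0.08 ± 0.0696 (SE). The log2 fold changes of MLX and MLXIP were 0.04 and -0.05 when FOXL2 siRNA replicate 2 was left out. Their groups overlapped, as did the ratio of MLXIP to MLX in TPM, which was 0.459 ± 0.0121 in controls and 0.429 ± 0.0420 after FOXL2 siRNA. MLX overlaps PSMC3IP, a recombination factor, on the opposite strand. PSMC3IP had 32.9, 36.0 and 35.0 CPM in controls and 18.2, 33.0 and 27.0 CPM after FOXL2 siRNA, and whether the counting used strand is not stated in the sources used here.

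**Figure D3:**
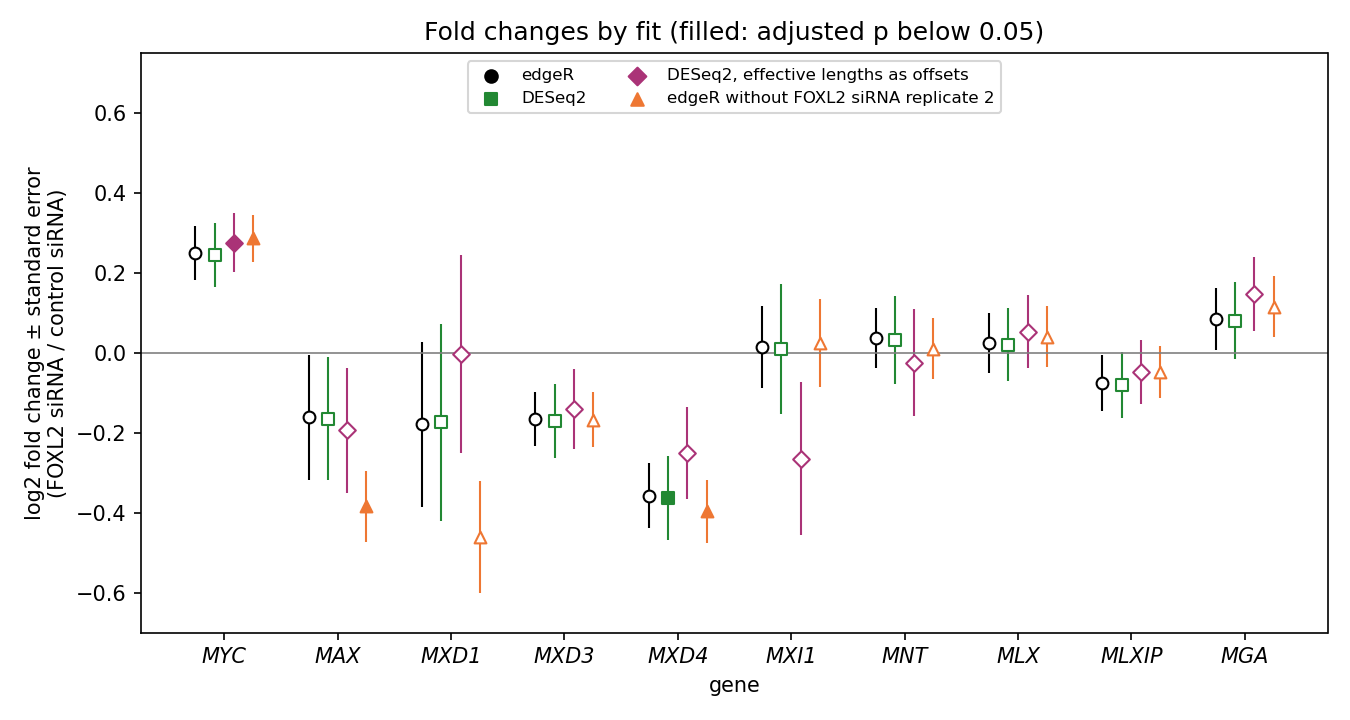
Log2 fold change of FOXL2 siRNA over control siRNA with its standard error for each network gene in 4 fits, where a filled symbol marks a Benjamini-Hochberg adjusted p below 0.05. MYC lies between 0.24 and 0.29 in all 4 fits and is filled in 2 of them, MXD4 lies between -0.40 and -0.25, and MXI1 falls below 0 only when effective lengths enter the fit.

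Competition for MAX was described by setting MYC against the summed TPM of its 6 antagonists, MXD1, MXD3, MXD4, MXI1, MNT and MGA. The sum was 98.8, 101 and 98.2 TPM in controls and 85.7, 94.5 and 94.0 TPM after FOXL2 siRNA. The ratio of MYC to that sum was 0.758, 0.801 and 0.815 in control siRNA replicates 1, 2 and 3 and 1.09, 1.02 and 1.03 in the FOXL2 siRNA replicates. Control cells thus held more antagonist than MYC transcript in every library, and depleted cells slightly more MYC. MYC made up 44.2 ± 0.934% of the MAX partners in controls and 51.2 ± 0.869% after FOXL2 siRNA, without overlap, while the total of MYC and its antagonists overlapped between groups (174 to 182 TPM and 179 to 191 TPM). The ratio kept its direction from CPM (0.627 to 0.697 in controls and 0.777 to 0.873 after FOXL2 siRNA) and without MGA (0.822 to 0.879 and 1.12 to 1.21). Because these members were put together with results of the data known, the ratio is a description and carries no test. MYC relative to MAX itself overlapped, with ratios from 1.98 to 2.43 in controls and of 3.94, 2.38 and 2.85 in FOXL2 siRNA replicates 1, 2 and 3. FOXL2 siRNA replicate 2, which was high in MAX, lay between the controls there.

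**Figure D4:**
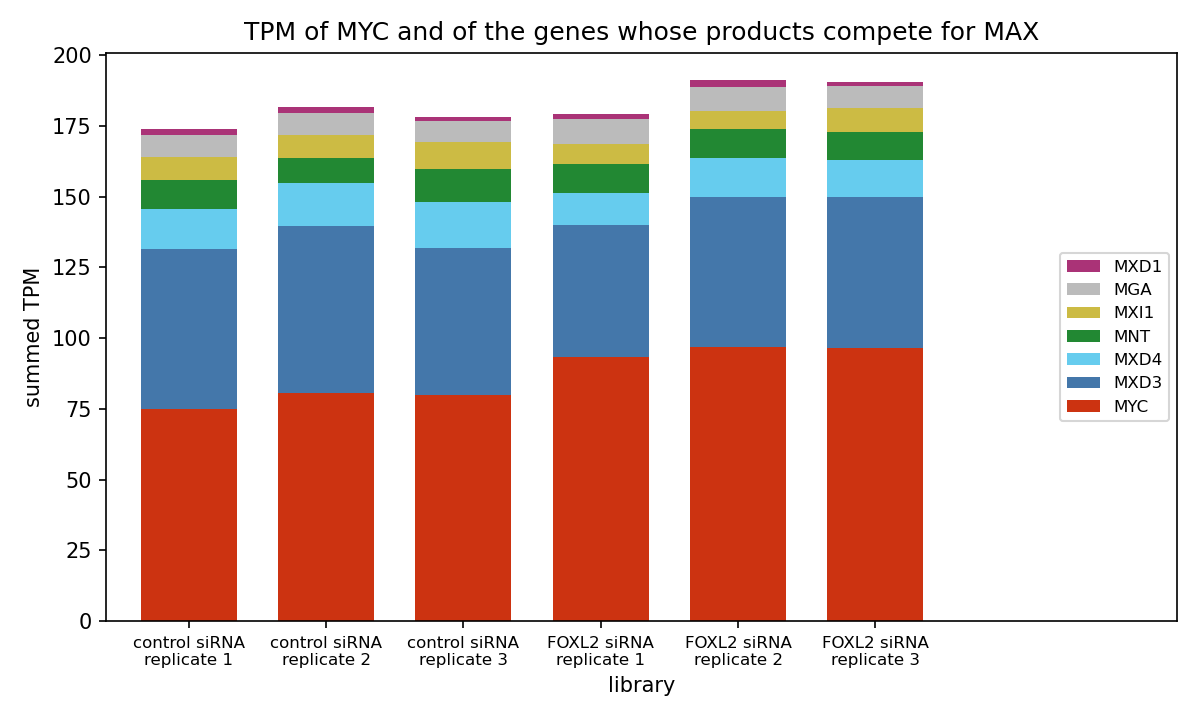
Summed TPM of MYC and its 6 antagonists in each library, drawn as stacked bars from 0. MYC (red) fills 43.1% to 44.9% of the bar in the 3 control siRNA libraries and 50.6% to 52.2% in the 3 FOXL2 siRNA libraries, and MXD3 is the largest antagonist share in each.

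RSEM also gave each gene a length per library, weighted by the isoforms it inferred, so a shift in length is a readout of isoforms that counts do not hold. Among the members, MXI1 alone had lengths that did not overlap, against 10.8% of the 13351 tested genes with more than 1 annotated transcript. They were 1587, 1569 and 1380 bases in controls and 1698, 2151 and 1662 bases after FOXL2 siRNA (two-sided p = 0.1 by the exact permutation test). These estimates rested on 187 to 243 counts spread over 38 annotated transcripts, the fewest counts of any member but MXD1. FOXL2 siRNA replicate 2 had the greatest length, and the other depleted libraries still lay above the controls. In TPM, which divides by length, MXI1 had 8.25, 8.15 and 9.52 in controls and 7.19, 6.15 and 8.34 after FOXL2 siRNA, a lower mean with overlapping groups. With effective lengths as offsets in DESeq2 its log2 fold change went from 0.01 to -0.27 ± 0.191 (SE, Benjamini-Hochberg adjusted p = 0.600). The lengths of MYC differed little, with 2094 to 2142 bases in controls and 2066 to 2145 bases after FOXL2 siRNA.

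**Figure D5:**
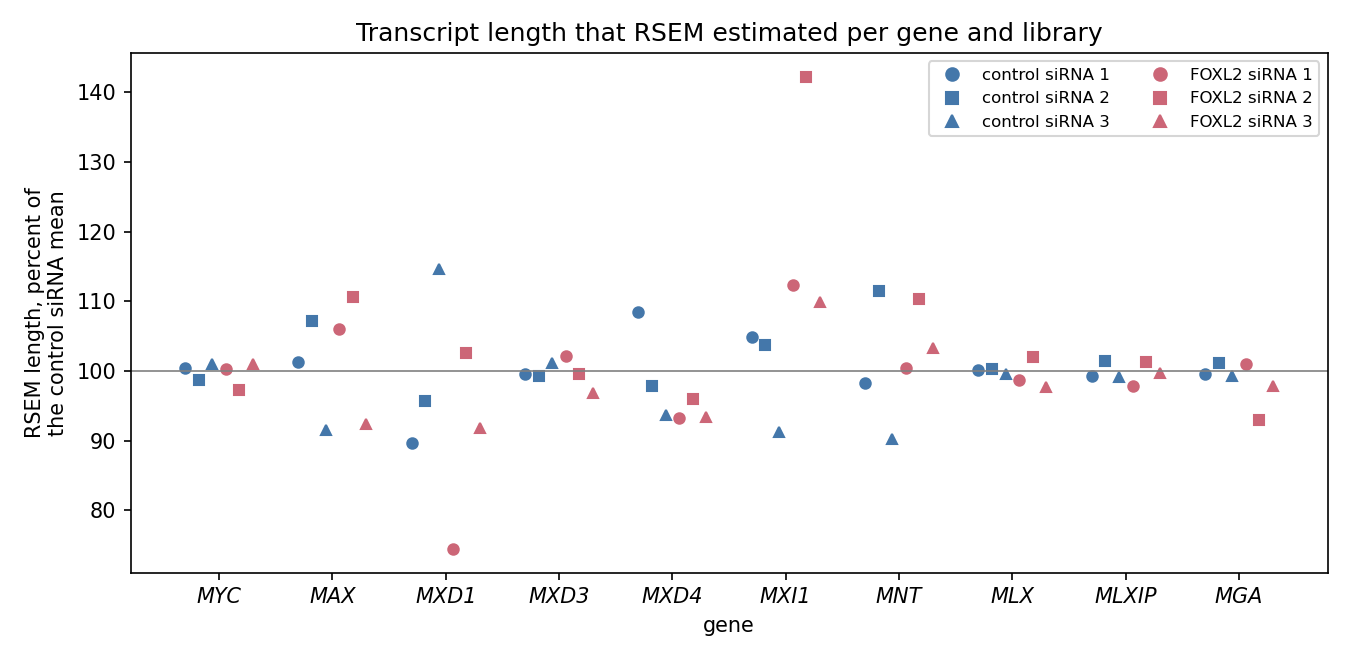
Length that RSEM estimated for each network gene in each library as a percentage of the control siRNA mean, with 3 control siRNA libraries in blue and 3 FOXL2 siRNA libraries in red. MXI1 is the one gene whose red points all lie above its blue points, with replicate 2 (square) the highest, and MYC, MXD3, MLX and MLXIP stay close to 100.

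The proteins that work with the network were described from 10 lists holding 182 tested genes that are not members. These lists were chosen with earlier results of the data known. Their shares below are therefore a description, and a difference from the share over all genes carries no test. Positive and negative values are counted per list regardless of size, and the split over all genes tested was not counted. Some genes, among them WDR5, HDAC1 and TXNIP, stand in several lists. edgeR called 0 of the 182, and 42 of them (23.1%) had an unadjusted p below 0.05, of which 12 were higher and 30 lower after FOXL2 siRNA, beside 13.5% over all genes. DESeq2 called 11 of the 179 to which it gave an adjusted p (6.15%, beside 3.06% over all genes), 3 higher and 8 lower. Without FOXL2 siRNA replicate 2, edgeR called 16 (8.79%, beside 3.61% over all genes).

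Of 20 coactivators and partners of MYC, 4 had a positive and 16 a negative log2 fold change. DESeq2 called WDR5, a chromatin adaptor through which MYC binds its targets, which had 68.3, 66.4 and 69.3 CPM in controls and 56.2, 43.4 and 43.0 CPM after FOXL2 siRNA. All 3 depleted libraries were lower (edgeR log2 fold change -0.52, DESeq2, Benjamini-Hochberg adjusted p = 0.000741). The highest value of this list was that of MYCBP, a MYC-binding protein, with a log2 fold change of 0.20 ± 0.0774 (SE). In the list of 21 tested genes of MYC protein turnover, DESeq2 called BTRC, a ubiquitin ligase subunit. BTRC had 17.7, 18.7 and 18.7 CPM in controls and 26.3, 24.4 and 24.7 CPM after FOXL2 siRNA, higher in every depleted library (log2 fold change 0.45, Benjamini-Hochberg adjusted p = 0.0510 in edgeR's quasi-likelihood test and 0.00468 in DESeq2). GSK3B, the kinase that marks MYC for destruction, was lowest in that list at -0.24 ± 0.0956 (SE), and FOXL2 siRNA replicate 2 lay nearest to its controls. Without that replicate the edgeR value of GSK3B was -0.36 and edgeR called it, where 3.61% of all genes passed.

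In the SIN3-HDAC corepressor, which MXD proteins recruit, 5 of 19 tested genes had a positive and 14 a negative log2 fold change. DESeq2 called SKI and SIN3B. SKI, a corepressor of several pathways, had 98.3, 96.5 and 96.1 CPM in controls and 56.1, 34.5 and 28.0 CPM after FOXL2 siRNA, and all 3 depleted libraries were far below the controls (log2 fold change -1.29, Benjamini-Hochberg adjusted p = 0.0510 in edgeR's quasi-likelihood test and 0.00324 in DESeq2). SIN3B, a scaffold of the complex, had 65.8, 70.1 and 73.9 CPM in controls and 60.3, 53.4 and 55.1 CPM after FOXL2 siRNA, also without overlap. Its edgeR log2 fold change was -0.31, and its Benjamini-Hochberg adjusted p in DESeq2 was 0.0240. The highest of the list was BRMS1L at 0.20 ± 0.218 (SE). HDAC1, a deacetylase shared with the Polycomb complex of MGA, had 139, 142 and 138 CPM in controls and 130, 68.2 and 83.2 CPM after FOXL2 siRNA, and neither tool called it (log2 fold change -0.57 ± 0.193, SE). The Polycomb list counted 6 positive and 10 negative values among 16 tested genes, with WDR5 the one DESeq2 call and YAF2 the highest at 0.41 ± 0.206 (SE).

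Of 62 tested genes that MYC is known to activate, 29 lay above and 33 below a log2 fold change of 0 (median -0.01). An unadjusted edgeR p below 0.05 was reached by 3 higher and 9 lower genes, beside 13.5% over all genes. CPM groups did not overlap for 2 higher and 9 lower genes, beside 9.97% and 10.6% over all genes. DESeq2 called 0 of them higher and 2 lower, where 3.06% of all genes passed. Without FOXL2 siRNA replicate 2, edgeR called 0 higher and 5 lower, where 3.61% of all genes passed. NCL, which encodes nucleolin, had 821, 807 and 828 CPM in controls and 660, 715 and 719 CPM after FOXL2 siRNA, below the controls throughout (log2 fold change -0.23, DESeq2, Benjamini-Hochberg adjusted p = 0.0194). UBTF, a factor of ribosomal RNA transcription, had 159 CPM in each control and 134, 111 and 130 CPM after FOXL2 siRNA (log2 fold change -0.35, DESeq2, Benjamini-Hochberg adjusted p = 0.00527). The highest was CDC25A, a cell cycle phosphatase, with 32.8, 29.6 and 36.7 CPM in controls and 42.4, 37.3 and 42.3 CPM after FOXL2 siRNA (log2 fold change 0.30 ± 0.0947, SE), which neither tool called. Genes that MYC is known to repress had 6 positive and 10 negative values among 16 tested, with a median of -0.10. DESeq2 called THBS1, which encodes thrombospondin, higher (0.26) and TXNIP (-0.45) and COL3A1 (-0.32) lower by the edgeR log2 fold change, at Benjamini-Hochberg adjusted p of 0.0104, 0.00130 and 0.0278 in DESeq2. The highest value belonged to CDKN1B, a cell cycle inhibitor, at 0.35 ± 0.110 (SE), higher in every depleted library, which neither tool called.

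TXNIP, a thioredoxin-binding protein, is also the best known target of MLX dimers in response to glucose. It had 144, 139 and 129 CPM in controls and 89.6, 116 and 95.8 CPM after FOXL2 siRNA, lower in every depleted library. Of the 15 tested genes of the glucose list, 3 had a positive and 12 a negative log2 fold change, TXNIP was the one DESeq2 call, and its relative ARRDC3 was highest at 0.33 ± 0.136 (SE). Among 19 tested genes upstream of MYC transcription, 3 were above and 16 below 0. STAT3, a transcription factor that acts on MYC, had 145, 147 and 148 CPM in controls and 182, 167 and 183 CPM after FOXL2 siRNA, higher in each (log2 fold change 0.27, DESeq2, Benjamini-Hochberg adjusted p = 0.0162). HNRNPK, a nucleic acid-binding protein reported to activate MYC, had 675, 662 and 658 CPM in controls and 478, 568 and 534 CPM after FOXL2 siRNA, lower in each (log2 fold change -0.34, DESeq2, Benjamini-Hochberg adjusted p = 0.00149). The lowest value was that of TCF7, a partner of beta-catenin, at -0.48 ± 0.175 (SE), which neither tool called.

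Promoter windows of the members were searched for the E-box, the site that the dimers of the network bind, and for forkhead letters. RefSeq windows of 250 bases before to 50 bases after a start (GRCh38.p14) were at hand for 9 members, 14 windows in all. The member without a window was not searched, so a gene not named below is not thereby shown to lack a match. CACGTG, the E-box that MYC and MAX dimers prefer and which reads alike on both strands, stood in 3 of the 14 windows and in 7.26% of all 35116 windows. The matches lay in MXD4 (chr4:2262330-2262359, minus strand, with the motif beginning 238 bases before the start), MNT (chr17:2401236-2401265, minus strand, 193 bases before) and MLX (chr17:42567038-42567067, plus strand, 50 bases before). The sequences below show each E-box in capitals within 30 bases, 5′ to 3′ on the strand of the gene.
MXD4: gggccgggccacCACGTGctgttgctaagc
MNT: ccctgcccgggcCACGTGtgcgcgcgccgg
MLX: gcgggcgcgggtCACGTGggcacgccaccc
These 3 genes with the same letters had log2 fold changes of -0.36, 0.04 and 0.02. Whether the letters bear on these values was not tested.

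The forkhead letters searched, on both strands, were GTAAACA, then its close variant ATAAACA, then the word GTAAATA, and lastly its close variant ATAAATA, which are versions of the core that forkhead proteins bind in DNA. They occurred in 3 of the 14 member windows and in 13.6% of all windows, and none of them overlapped an E-box. The matches were in MXD1 (chr2:69915068-69915097, plus strand, with the motif beginning 29 bases before the start) and in MXI1 windows of different start sites (chr10:110210068-110210097, plus strand, 151 bases before, and chr10:110225982-110226011, plus strand, where the motif begins 2 bases before the start and runs past it). They are shown with the forkhead letters in capitals.
MXD1: ggtgagtcggggATAAACActccgcggcgg
MXI1, first start: ccgccacctcgtTGTTTACcccgtgccggg
MXI1, second start: tcgcggggagagGTAAACAaaccacgcgcg
MXD1 and MXI1 had overlapping CPM values, and MXI1 was the member whose RSEM length did not overlap. A match of letters is not a binding site, and binding was not measured in these libraries.

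The study was concerned with RNAs rich in G doublets. A run of 8 G doublets with gaps of 1 to 4 bases was sought in the longest protein-coding transcript of each gene in GENCODE 29. It was present in 2 of the 10 members, MNT with 3 matches and MLXIP with 1, and in 21.4% of 12627 tested genes. MNT and MLXIP had log2 fold changes of 0.04 and -0.08, and the other members held no such run in the transcript searched. Whether such runs bear on the differences was not tested. The study's comparison used published transcripts thought to form structures of stacked G bases, found by stops of reverse transcription in vitro. That is a different measure from a search for letters.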

How the data were processed

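The 6 libraries of KGN cells were grouped by siRNA, with the replicate numbers of the labels. The libraries were stranded mRNA libraries sequenced as single reads, which the authors processed with STAR 2.7.6a, Picard 2.8.1 and RSEM 1.3.1, per the submitters' processing notes. These notes name GRCm38, a mouse build, while the identifiers in the tables are human. The annotation release is not given in the sources used here. The deposited expected counts are estimated counts, not normalized. The deposited TPM and FPKM values are scaled by the authors' run of RSEM to library and length, and FPKM was not used. Gene symbols were looked up by identifier (60401 of 60671 identifiers matched). Coordinates are those of GRCh38 and GENCODE 29.

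Expected counts were rounded. Genes were kept by filterByExpr (edgeR 4.0.16, R 4.3.3), normalised by TMM and tested with the quasi-likelihood test over all genes, calling genes at a Benjamini-Hochberg adjusted p below 0.05. The test was tested on simulated data. Alternatives were DESeq2 1.42.0, limma 3.58.1 (voom, and log2(TPM + 1) or log2(TPM + 0.1) for genes with a mean of at least 1 TPM), DESeq2's size factors, other filters on low counts, RSEM effective lengths as offsets, the replicate number as a block, and each library left out. Single values were compared by an exact permutation test. Errors of levels are SDs of 3 libraries, and those of log2 fold changes are standard errors. DESeq2 reports its own, while for edgeR the absolute log2 fold change was divided by the square root of the quasi-likelihood F statistic. The labels do not say that the libraries came from separate cultures, so p-values measure the spread between these libraries only. Python 3.11.15 was used for motifs and plots.

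The members and lists were chosen with earlier results of these data known. Named genes are FOXL2, the members, every call of edgeR or, failing that, DESeq2 in each list, the highest and lowest log2 fold change of each list, and the 3 genes most correlated with MYC. FNTB, PSMC3IP, RAB24, SNRNP27 and PRELID1 are named because they overlap a member, the cell type markers to check the cells and the libraries, and the untested neighbours of MYC to account for their list.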

Additional observations from a re-analysis of the deposited data

How the results depend on the processing

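Counts of calls depended strongly on the tool and on single libraries. Against 40 genes in edgeR, DESeq2 called 353, DESeq2 with effective lengths 346, limma on log2(TPM + 1) and on log2(TPM + 0.1) 13 each, edgeR without a filter 70 and with a mean of at least 50 counts 64. Leaving out 1 library gave 2 to 579 genes, with 2 left when control siRNA replicate 1 or 3 was omitted, 3 for control siRNA replicate 2, and 105, 579 and 9 for FOXL2 siRNA replicates 1, 2 and 3. Members called went from 0 to 1 in DESeq2 and in DESeq2 with effective lengths, and between 0 and 3 with 1 library left out, the 3 without FOXL2 siRNA replicate 2. Genes of the other lists called went from 0 to 11 in DESeq2, 11 in DESeq2 with effective lengths, 1 each in limma-voom, edgeR without a filter and edgeR with effective lengths, 2 with a mean of at least 50 counts, and 0 to 16 with 1 library left out. The 3 calls without FOXL2 siRNA replicate 1 and the 16 without FOXL2 siRNA replicate 2 are the exceptions to 0. The cause of these differences was not tested.

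The log2 fold change of MYC was positive in all 17 alternatives. It passed the threshold with effective lengths in DESeq2 (0.28) and without FOXL2 siRNA replicate 2, and with 1 library left out it lay between 0.21 and 0.29. Over the 10 members, 152 of 170 values kept their sign and side of the threshold, 5 newly passed it and 13 changed sign, none of these past the threshold. The sign changed for MXI1 in limma on log2(TPM + 1) (-0.23) and log2(TPM + 0.1) (-0.26) and with effective lengths in edgeR (-0.26) and DESeq2 (-0.27), and between -0.0403 and 0.0508 with 1 library left out. It changed for MNT under the same 4 settings (-0.0071, -0.0069, -0.0180 and -0.0248), for MXD1 with effective lengths in edgeR (0.0113) and for MLX with 1 library left out (-0.0298 to 0.0714).

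With the replicate number as a block, edgeR called 11 genes and DESeq2 189, of which 0 members in either and 7 genes of the other lists in DESeq2. The log2 fold change of MYC with the replicate block was 0.25 in edgeR and 0.24 in DESeq2. The numbers were not shown to pair the libraries, since the deviations of same-numbered libraries correlated at -0.0301, 0.0473 and 0.0478 over 15663 genes. Depth limits MXD1 and MXI1 most, with 102 to 243 counts per library.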
